A study of Mus musculus with 12 samples.

Results

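Heat shock genes and cold-inducible RNA-binding genes were followed across the livers of mice with diet-induced obesity. The set holds 10 genes, picked by symbol from the 46078 genes of the count table: 8 heat shock genes (Hsp90aa1, Hsph1, Hspb1, Dnajb1, Bag3, Hspa8, Hspa1a and Hspa1b) and 2 cold-inducible genes (Cirbp and Rbm3). All 10 were found in the table and all 10 passed the filter on low counts, as did 13054 genes in all. The question behind the comparison was how sleeve gastrectomy and an equal weight loss by food restriction differ in their effect on the liver.

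All mice were C57BL/6 by the labels (C57BL/6J in the study's methods), 21 weeks old and obese from a high-fat diet, and all underwent an operation. In the VSG group the operation was a sleeve gastrectomy, which removes most of the stomach. Mice of the Sham-WM group had sham surgery and were then given restricted food so that their weight matched that of the VSG mice, and mice of the Sham-Ad lib group had sham surgery and went back to eating freely. Liver RNA of 4 mice per group was sequenced, each mouse as 1 library named here by its animal number (9F, for example), and every mouse was without food for a period before the liver was taken. Library totals ran from 15122520 to 19384076 counts. Each of the 6 hepatocyte markers was detected in every group, and hepatocyte markers had a summed level of 101864 to 121142 CPM (each count divided by its library's total, the usual depth-corrected unit, with totals adjusted by the TMM method) in Sham-Ad lib livers, 119310 to 150178 CPM in Sham-WM livers and 76650 to 118317 CPM in VSG livers. Labels disagree on 1 point: the sample titles and the library names share animal numbers, which gave the groups used here, whereas a second label field pairs the titles with libraries of other animals. With the second pairing no gene was called in any of the 3 comparisons by edgeR's test (465 genes had an unadjusted p under 0.05 for VSG and 715 for Sham-WM against Sham-Ad lib, and 158 for VSG against Sham-WM), and 25 of the 30 fold changes of the 10 genes turned sign, so every result here rests on the pairing by animal number. Library names also end in a running number whose meaning the labels do not give. These numbers form 1 consecutive block in each group, so anything that followed them and the treatments cannot be told apart. Per the study's methods, the authors took out batch-related variation in the operated mice with RUVSeq. The main fit used here has no batch term.

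Heat shock genes encode molecular chaperones, proteins that help other proteins fold, keep them from clumping and pass damaged ones on for degradation. Their transcription is driven by heat shock factor 1 (HSF1), which is held inactive by chaperones and, once free, binds repeats of the short unit GAA and its complement TTC in the promoters of its targets. Cirbp and Rbm3 encode small RNA-binding proteins that behave the other way round: their transcripts accumulate when cells are mildly cooled and fall when they are warmed. In the liver both groups are also known to follow the daily rhythm of body temperature and feeding.

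RefSeq promoter windows (GRCm38.p6, the mm10 build; 250 bases before to 50 after a start site) were at hand for 7 of the 10 genes, and Rbm3, Hsp90aa1 and Hspa8 were not among them. The 150 bases before the start are printed for the 4 genes that held the HSF1 unit pair there, and for Cirbp as a gene without one. Capitals mark each match of GAANNTTC or TTCNNGAA, where N is any base. Both patterns read the same on either strand, and overlapping matches were allowed.
Hspa1a, chr17:34972157-34972306, minus strand: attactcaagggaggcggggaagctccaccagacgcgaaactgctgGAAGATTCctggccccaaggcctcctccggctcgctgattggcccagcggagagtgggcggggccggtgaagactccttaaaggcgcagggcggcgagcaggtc
Hspa1b, chr17:34959239-34959388, minus strand: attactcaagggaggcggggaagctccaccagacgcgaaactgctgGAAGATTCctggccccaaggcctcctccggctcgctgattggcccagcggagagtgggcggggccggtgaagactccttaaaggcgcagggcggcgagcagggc
Hsph1, chr5:149636337-149636486, minus strand: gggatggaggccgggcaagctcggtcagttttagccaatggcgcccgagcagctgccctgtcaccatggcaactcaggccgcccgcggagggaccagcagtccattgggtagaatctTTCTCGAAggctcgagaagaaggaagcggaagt
Hspb1, chr5:135887769-135887918, plus strand: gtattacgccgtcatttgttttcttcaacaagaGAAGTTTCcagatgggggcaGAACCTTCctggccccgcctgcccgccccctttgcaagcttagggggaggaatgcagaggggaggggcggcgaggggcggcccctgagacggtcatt
Cirbp, chr10:80167689-80167838, plus strand: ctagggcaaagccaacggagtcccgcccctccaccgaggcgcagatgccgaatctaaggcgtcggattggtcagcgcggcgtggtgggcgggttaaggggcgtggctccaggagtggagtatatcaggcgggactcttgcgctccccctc
Hspa1a and Hspa1b, neighbouring genes for the inducible HSP70, both had 1 match at the same distance from the start, and 247 of the 250 bases before their starts were identical (98.8%). Hspb1 had 2 matches, which began 117 and 97 bases before the start, and Hsph1 had 1, which began 33 bases before it. In Hsph1, further matches after the start joined into 3 alternating units (TTCNNGAANNTTC or its complement GAANNTTCNNGAA). Bag3 had 1 match, which began at base 43 after the start, and neither Cirbp nor Dnajb1 had any in 2 windows each. In all, 6 of the 10 windows of these genes held the pair, against 15.1% of the 32851 RefSeq promoters and 1551 of the 12952 promoters of genes tested. By gene that was 5 of 7, against 4587 of 27025. The 3-unit pattern stood in 0.603% of all promoters. A match describes letters only and is not a measured binding site.

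Per kilobase of exon, the mean level over all 12 libraries was highest for Hspa8, the constitutive HSP70 that folds new proteins (315 ± 73.8 CPM per kb, SD, n = 12), followed by the stress-inducible HSP90 gene Hsp90aa1 (72.9 ± 41.6). Hspb1, Bag3, Rbm3, Hsph1, Dnajb1 and Cirbp followed at 19.1, 12.6, 9.95, 7.64, 7.32 and 4.90 CPM per kb, and neighbours among these 6 differed by less than the larger SD of each pair. Hspa1b (3.33 CPM per kb) and Hspa1a (0.215 CPM per kb) were the lowest of the 10. These 2 genes are near-identical copies, so reads may have been split between them or left uncounted in ways the counts do not show. Their levels may therefore be understated. Hspa1a also shares 564 exon bases with Gm20481, a gene on the opposite strand that had a mean of 0 counts.

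**Figure D1:**
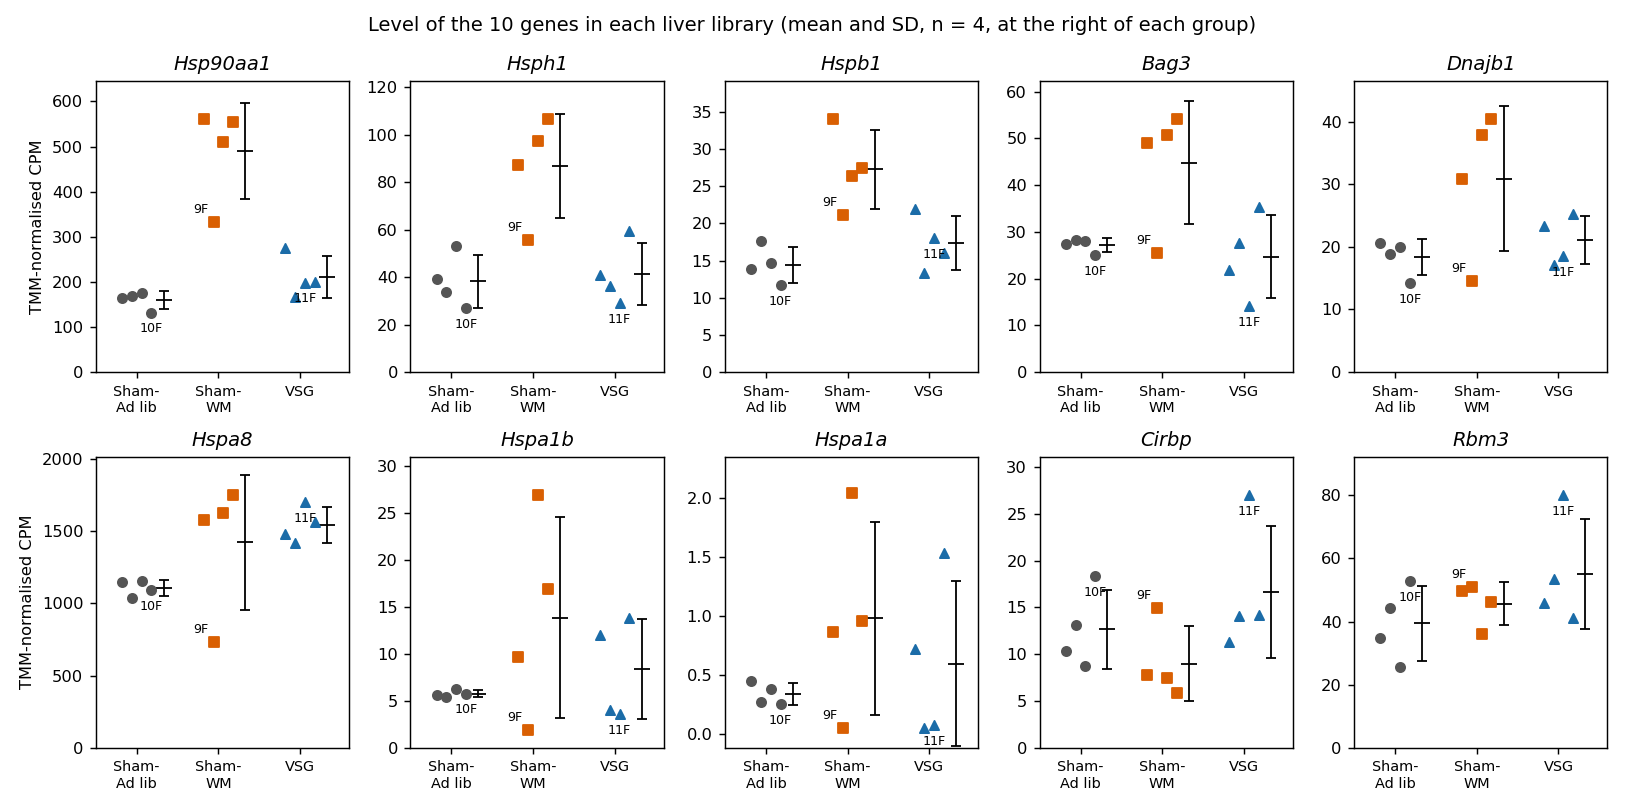
Points give the TMM-normalised CPM of each of the 10 genes (one panel each, linear axis) in each of the 12 livers, with group mean and SD (n = 4) to the right. Sham-WM libraries lay above the other groups for Hsp90aa1, where the lowest Sham-WM value was 333 CPM and the highest of the other groups 276 CPM, and library 9F was the lowest of its group for all 8 heat shock genes.

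In Sham-WM livers, 3 heat shock genes rose against Sham-Ad lib: Hsp90aa1 by 3.06-fold, Hsph1 by 2.26-fold and Hspb1 by 1.88-fold. All 8 heat shock genes had a positive fold change, with a median log2 fold change of 1.05 against 0.00 over all genes tested. Among these, Hspa1a had under 10 counts, the filter's minimum, in every Sham-Ad lib library. It was thus kept through Sham-WM and VSG libraries, and its sign is no support. Hspa1a and Hspa1b are near-identical copies and do not count as separate genes here. Cirbp had a negative value and Rbm3 a small positive one, and neither passed the test. The 3 genes called of 10 stand beside 6.99% of all 13054 genes called in this comparison, 3.53% of them higher (edgeR quasi-likelihood test, Benjamini-Hochberg adjusted p under 0.05).

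Hsp90aa1 (ENSMUSG00000021270, chromosome 12 from 110690605 to 110702728, mm10) encodes the HSP90 chaperone that keeps kinases and hormone receptors in a form ready to act. It had 164, 169.7, 175 and 132 CPM in Sham-Ad lib libraries 3F, 4F, 6F and 10F, and 561, 333, 510.1 and 554 CPM in Sham-WM libraries 2F, 9F, 15F and 16F. Every Sham-WM value was higher than every Sham-Ad lib value, and library 9F was the lowest of its group. On the log2 scale the difference was 1.61 with a standard error of 0.19 (edgeR, adjusted p = 0.000374).

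Hsph1 (chromosome 5 from 149614287 to 149636376), the HSP110 protein that exchanges the nucleotide of HSP70, had 39.3, 33.8, 53.2 and 26.9 CPM in Sham-Ad lib and 87.3, 55.8, 97.5 and 106.6 CPM in Sham-WM livers in the same order of libraries. The groups did not overlap, although 9F lay close to the highest Sham-Ad lib library. On the log2 scale Hsph1 was 1.18 higher, with a standard error of 0.25 (edgeR, adjusted p = 0.0153). The call was lost without library 10F (adjusted p = 0.0550) and without 16F (adjusted p = 0.0543).

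Hspb1 (chromosome 5 from 135887919 to 135889563), a small heat shock protein that holds unfolded proteins and steadies actin, had 13.9, 17.6, 14.6 and 11.7 CPM in Sham-Ad lib and 34.0, 21.1, 26.4 and 27.5 CPM in Sham-WM livers. Again no value overlapped. On the log2 scale Hspb1 was 0.91 higher, with a standard error of 0.18 (edgeR, adjusted p = 0.00923). Of the 10 genes, these 3 were the ones with no overlap, against 17.6% of all genes tested, and for each the two-sided exact permutation test gave p = 0.0286, which no arrangement of 4 and 4 libraries can go below.

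The HSP70 co-chaperones Dnajb1 and Bag3 and the HSP70 genes did not pass the threshold in edgeR's fit of the 12 libraries. Dnajb1 (chromosome 8 from 83608193 to 83612653), the J-domain protein that hands clients to HSP70, had 20.5, 18.8, 20.02 and 14.2 CPM in Sham-Ad lib and 30.8, 14.6, 37.8 and 40.4 CPM in Sham-WM livers. Bag3 (chromosome 7 from 128523616 to 128546981), which couples HSP70 to autophagy, had 27.4, 28.3, 28.1 and 25.1 CPM and 49.0, 25.4, 50.6 and 54.1 CPM. Library 9F lay inside the Sham-Ad lib range for both genes, while the other 3 Sham-WM libraries lay above it. The log2 fold changes were 0.75 for Dnajb1 (95% interval 0.20 to 1.29, adjusted p = 0.0998) and 0.72 for Bag3 (0.17 to 1.27, adjusted p = 0.112). DESeq2 called Dnajb1 (adjusted p = 0.0495), and Bag3 was called by edgeR with only the 2 groups compared (adjusted p = 0.0456), with 2 RUVr factors (adjusted p = 0.0221) and without library 11F (adjusted p = 0.0496).

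Hspa8 (chromosome 9 from 40800984 to 40810087) had 1145, 1039, 1154 and 1092 CPM in Sham-Ad lib livers and 1577, 731, 1626 and 1753 CPM in Sham-WM livers. Here 9F was below every Sham-Ad lib library and the other 3 were above all of them (log2 fold change 0.36, adjusted p = 0.367, edgeR). Hspa1b (chromosome 17 from 34956436 to 34959238) had 5.58, 5.37, 6.28 and 5.77 CPM in Sham-Ad lib and 9.63, 1.89, 27.0 and 16.9 CPM in Sham-WM livers. The spread of Hspa1b among Sham-WM mice was wide, and its log2 fold change of 1.27 had an adjusted p of 0.238 in edgeR's test. Hspa1a (chromosome 17 from 34969190 to 34972156) had 8, 5, 7 and 4 counts in Sham-Ad lib libraries and 17, 1, 40 and 17 counts in Sham-WM libraries, too few to set a fold firmly. With the counts of both copies summed before the fit, edgeR's test gave an adjusted p of 0.243.

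Library 9F thus stood apart from the other Sham-WM libraries in heat shock genes. Without it, edgeR's test called 7 of the 8 heat shock genes higher in Sham-WM: the 3 above and also Dnajb1 (log2 fold change 0.98, adjusted p = 0.00588), Bag3 (0.92, adjusted p = 0.0284), Hspa8 (0.58, adjusted p = 0.0214) and Hspa1b (1.64, adjusted p = 0.0474). That fit called 858 of 13280 genes in all. Library 9F was left out here after it was seen to be lowest for these same genes. Leaving it out raises their Sham-WM mean by construction, so the added calls are a description and no support. Nothing in the labels set 9F apart. Its total of 19384076 counts was the highest of the 12 libraries and its TMM factor was 1.01. Of the clock genes, Dbp had 12.7 CPM in 9F and 7.60 to 23.1 CPM in the other Sham-WM libraries, against 110.9 to 166 CPM in Sham-Ad lib. Arntl (29.7 CPM in 9F) also lay within the range of the other Sham-WM libraries, whereas Per1 (19.4 CPM) and Per2 (33.4 CPM) were lowest in 9F. These were picked after their values were seen.

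Among the cold-inducible genes, Cirbp (chromosome 10 from 80165985 to 80172786) had 10.3, 13.1, 8.76 and 18.4 CPM in Sham-Ad lib libraries 3F, 4F, 6F and 10F and 7.80, 14.9, 7.50 and 5.80 CPM in Sham-WM libraries 2F, 9F, 15F and 16F. The 3 Sham-WM libraries other than 9F were below all Sham-Ad lib libraries. The log2 fold change of Cirbp was -0.49 (95% interval -1.20 to 0.23, adjusted p = 0.44, edgeR), and it was -0.84 without 9F (adjusted p = 0.140). Rbm3 (chromosome X from 8138975 to 8145880) had 34.8, 44.4, 25.6 and 52.9 CPM in Sham-Ad lib and 49.6, 50.9, 35.96 and 46.1 CPM in Sham-WM livers, which overlapped widely (log2 fold change 0.21, 95% interval -0.29 to 0.71, adjusted p = 0.665). Rbm3 shares 94 exon bases with the antisense gene Rbm3os, which had a mean of 2.83 counts.

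**Figure D2:**
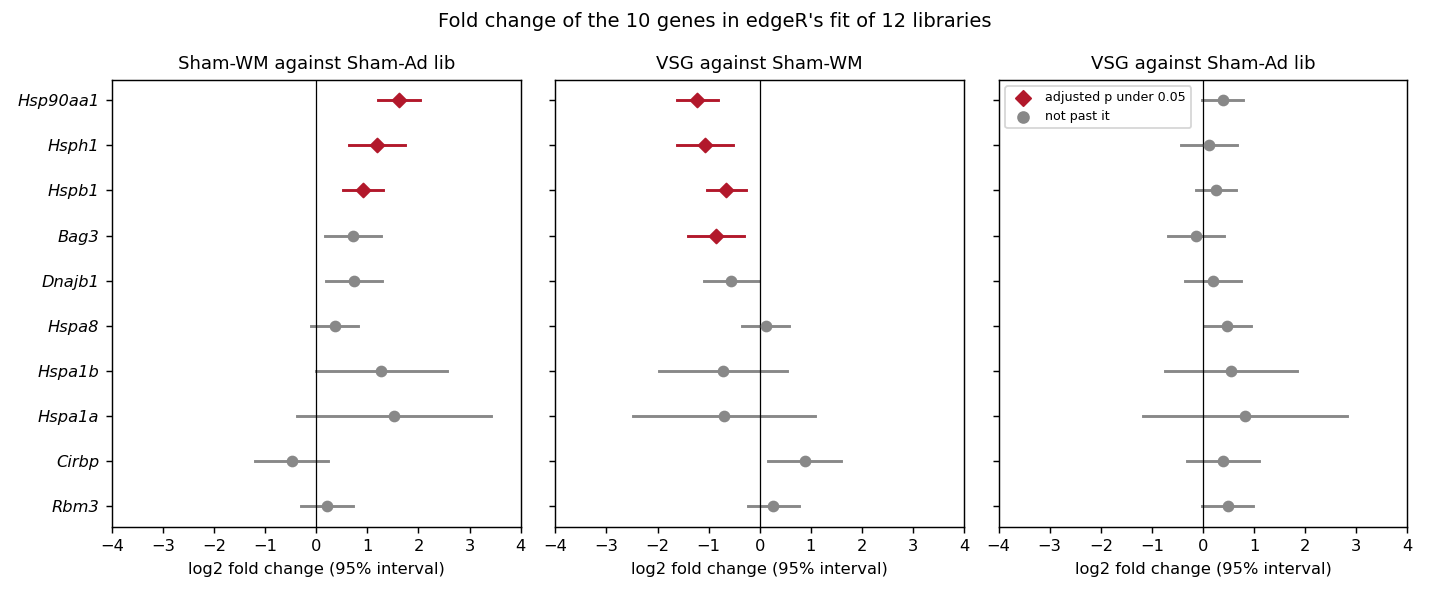
Each point is the log2 fold change of 1 gene in edgeR's fit of the 12 libraries, with its 95% interval as a line, and red diamonds mark an adjusted p under 0.05. Red diamonds stand right of 0 for 3 heat shock genes in Sham-WM against Sham-Ad lib (0.91 to 1.61), left of 0 for 4 in VSG against Sham-WM (-1.22 to -0.66), and nowhere in VSG against Sham-Ad lib.

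VSG livers had lower levels of 4 heat shock genes than Sham-WM livers: Hsp90aa1, Hsph1, Bag3 and Hspb1. None of the 10 genes was called higher after VSG, and Cirbp, with a log2 fold change of 0.88, just missed the threshold. The 4 genes called of 10 stand beside 26.9% of all genes called in this comparison, 11.9% of them lower, so the share of members called in either direction was not far above the share over all genes. Hsp90aa1 had 276, 166, 199 and 199 CPM in VSG libraries 1F, 8F, 11F and 18F, all below the lowest Sham-WM value of 333 CPM. On the log2 scale it stood at -1.22 with a standard error of 0.19 (edgeR, adjusted p = 0.00123), and it was the only member whose values did not overlap, against 26.2% of all genes tested.

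Hsph1 had 41.0, 36.2, 29.0 and 59.3 CPM in VSG livers, where 18F exceeded the Sham-WM library 9F (log2 fold change -1.07, standard error 0.25, adjusted p = 0.00955). Hspb1 had 21.9, 13.3, 18.1 and 16.0 CPM, and library 1F slightly exceeded 9F (log2 fold change -0.66, standard error 0.18, adjusted p = 0.0174). Bag3 had 21.7, 27.7, 14.2 and 35.2 CPM, and 8F and 18F exceeded 9F (log2 fold change -0.86, standard error 0.26, adjusted p = 0.0270). So each overlap with Sham-WM came from library 9F. The Bag3 call was lost without library 1F, 2F, 15F or 16F (adjusted p between 0.0560 and 0.0767) and with only the 2 groups compared (adjusted p = 0.0584), whereas the other 3 calls held in all 12 fits that left out 1 library. With 2 RUVs factors, which are estimated from the spread among libraries of a group, only Hsp90aa1 was called of the 10, whereas 2 RUVr factors, estimated from the residuals of the fit, gave 5 (the 4 above and Cirbp).

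The remaining heat shock genes differed less. Dnajb1 had 23.3, 17.1, 18.5 and 25.3 CPM in VSG livers (log2 fold change -0.55 against Sham-WM, 95% interval -1.10 to -0.01, adjusted p = 0.121). Hspa8 had 1483, 1415, 1703 and 1565 CPM, within the range of Sham-WM (log2 fold change 0.12, adjusted p = 0.714, edgeR, and -0.10 without 9F). Hspa1b was split within the VSG group, with 12.1 and 13.9 CPM in 1F and 18F and 4.03 and 3.62 CPM in 8F and 11F, and Hspa1a had 12 and 27 counts in the first pair and 1 count in each of the second. Both had an adjusted p over 0.3 in edgeR's test (0.377 for Hspa1b and 0.561 for Hspa1a).

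Cirbp had 11.3, 14.0, 27.0 and 14.2 CPM in VSG livers. Of these, 3 lay below the 14.9 CPM of the Sham-WM library 9F, and all 4 lay above the other 3 Sham-WM libraries. The log2 fold change was 0.88 (95% interval 0.16 to 1.59, adjusted p = 0.0648, edgeR). Without 9F it was 1.23 (adjusted p = 0.0187), a description only because 9F was singled out from these values. DESeq2 called Cirbp with all libraries (adjusted p = 0.0347). Rbm3 had 45.8, 53.4, 80.2 and 41.1 CPM in VSG livers, with a log2 fold change of 0.27 (95% interval -0.23 to 0.77, adjusted p = 0.407).

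Between VSG livers and Sham-Ad lib livers none of the 10 genes was called in edgeR's test, beside 0.751% of all genes tested. DESeq2 made no call among the 10 either, and 1 member, Hspa8, had an unadjusted p under 0.05 in edgeR's test. Hspa8 was higher in each of the 4 VSG libraries (1415 to 1703 CPM) than in each of the 4 Sham-Ad lib libraries (1039 to 1154 CPM), the 1 member without overlap, against 9.21% of all genes tested. Its log2 fold change was 0.48 (95% interval 0.01 to 0.94, adjusted p = 0.199), and the exact permutation test gave p = 0.0286, the smallest p possible. Of the other heat shock genes, Hsp90aa1 had a log2 fold change of 0.39 (adjusted p = 0.219), Hspb1 of 0.26 (0.387), Dnajb1 of 0.19 (0.669), Hspa1b of 0.55 (0.593) and Hspa1a, on its few counts, of 0.83 (0.606). The cold-inducible genes had 0.48 for Rbm3 (adjusted p = 0.225) and 0.39 for Cirbp (adjusted p = 0.476). For Hsph1 the log2 fold change was 0.11 (95% interval -0.44 to 0.66) and for Bag3 -0.14 (-0.69 to 0.41). Apart from that of Hspa8, the 95% intervals of all members held rises as well as falls. The comparisons share libraries, so the values in 1 comparison are not independent of those in another.

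Markers of neutrophils, of B cells and of Kupffer cells, the liver's macrophages, moved with the VSG group and stand beside every value of VSG above. Of 6 neutrophil markers, 5 were higher in VSG than in Sham-Ad lib livers and 6 than in Sham-WM livers, and their summed level was 30.9 to 899 CPM in VSG libraries against 1.08 to 16.8 CPM in Sham-Ad lib and 2.51 to 3.21 CPM in Sham-WM, where 1 of the 6 was at 0. Kupffer cell markers had a summed level of 389 to 1118 CPM in VSG, 113.5 to 376 CPM in Sham-Ad lib and 104.2 to 183 CPM in Sham-WM livers. Kupffer cell markers were called higher for 2 of 6 against Sham-Ad lib and 6 of 6 against Sham-WM. B cell markers were called higher for 1 of 5 tested against Sham-Ad lib and 3 of 5 against Sham-WM. Their summed level was 10.2 to 22.6 CPM in VSG, 3.95 to 8.26 CPM in Sham-Ad lib and 4.22 to 6.93 CPM in Sham-WM livers. Of 2 T and NK cell markers tested, 2 were called higher against Sham-WM and 0 against Sham-Ad lib. Of all genes, 0.751% were called against Sham-Ad lib and 26.9% against Sham-WM. Lower in VSG than in Sham-WM were 2 of 6 hepatocyte markers (Alb -0.73 and Cps1 -0.83). So were 2 of 6 stellate cell markers (Lrat -1.33 and Reln -1.06) and 1 of 6 sinusoidal endothelium markers (Kdr -0.89). These counts stand beside 26.9% of all genes called in this comparison, with 11.9% of all genes called lower. The other markers of these lists were not called, and some had positive values (Apoa1 0.16 and Col1a1 0.35, for example). Lrat was 0.82 higher in Sham-WM than in Sham-Ad lib, the 1 called of 6 stellate cell markers there. The part of these cells in the values of the 10 genes was not tested. In bulk liver, fewer cells of a type and less RNA per cell cannot be told apart.

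Clock genes moved with the Sham-WM group. Of 12 core clock genes tested, 8 were called in Sham-WM against Sham-Ad lib, beside 6.99% of all genes. Arntl (the activator BMAL1) was 4.68 and Cry1 3.05 higher on the log2 scale. The REV-ERB gene Nr1d1 (-3.42) and the output gene Dbp (-3.35) were lower. Arntl had 11.8 to 31.1 CPM in the 4 Sham-WM libraries and 0.558 to 1.61 CPM in the 4 Sham-Ad lib libraries. No clock gene was called in VSG against Sham-Ad lib, where only 0.751% of all genes were called. Between VSG and Sham-WM 9 of the 12 were called, beside 26.9% of all genes, the leading ones being Arntl (-4.72), Dbp (3.18), Cry1 (-3.03) and Nr1d1 (2.98). Of 14 immediate early genes, Egr1 (-3.69) and Junb (-2.33) were lower and Dusp1 (1.56) was higher in Sham-WM than in Sham-Ad lib, beside 6.99% of all genes called. The Sham-Ad lib levels of the first pair varied widely, at 50.9 ± 64.6 CPM for Egr1 and 38.0 ± 33.5 CPM for Junb (SD, n = 4). Between VSG and Sham-WM 5 of the 14 were called, beside 26.9% of all genes, led by Egr1 (2.41), Junb (2.01), Dusp1 (-1.51) and Ier3 (1.21). The part of the clock and immediate early genes in the heat shock values was not tested.

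Other chaperones, co-chaperones, mitochondrial proteases and HSF1-related genes were read from 8 short lists with 63 tested genes, chosen with earlier results of these data known. In Sham-WM against Sham-Ad lib 12 of the 63 were called (19.0%, beside 6.99% of all genes), 11 higher and 1 lower, with a median log2 fold change of 0.21. HSP90 and its co-chaperones held 7 of these 12. Of that list Stip1 (the adaptor between HSP70 and HSP90) rose by 1.19, Fkbp4 by 0.94 and Chordc1 by 0.64 on the log2 scale, and 3 further genes of the list rose by less. Fkbp5, an HSP90 co-chaperone known as a glucocorticoid target, was the 1 lower gene (-0.88, adjusted p = 0.0484). Stip1 had 51.7 to 65.6 CPM in Sham-Ad lib and 104.8 to 159.8 CPM in Sham-WM libraries, and the lowest of these was again 9F.

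Among the other lists, Hspa13 (0.80) and Hspa4l (0.78) rose of 6 HSP70 and HSP110 genes, and Cct3 (0.58) and Cct5 (0.43) of the 8 subunits of the cytosolic chaperonin. Clpx, the unfoldase of the mitochondrial ClpXP protease, rose by 1.31 and was the only one called of 9 mitochondrial chaperones and proteases. Unlike the heat shock genes, Clpx was highest in library 9F (248 CPM, against 125 to 208 CPM in the other Sham-WM libraries). None was called of 13 J-domain proteins (Dnaja1 0.46 and Dnaja2 0.08) or 6 BAG proteins and nucleotide exchange factors (Bag1 -0.05 and Bag6 -0.01). Nor was any of 4 small heat shock proteins (Hspb8 -0.58 and Hspb6 -0.15) or of 4 genes for HSF1, related factors and regulators (Hsbp1 -0.24 and Hsf2 0.25). All these counts stand beside 6.99% of all genes called in this comparison, so 0 or 1 called sets no list this short apart. The transcript of Hsf1, given for its role and outside the rule for named genes, had 11.8 CPM in Sham-Ad lib, 12.1 CPM in Sham-WM and 13.0 CPM in VSG livers, with an adjusted p of at least 0.401 in each comparison.

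VSG against Sham-WM called 19 of the 63 genes of these lists (30.2%, beside 26.9% of all genes), 15 lower and 4 higher, with a median log2 fold change of -0.21. Lower were Stip1 (-1.11), Fkbp4 (-0.99), Chordc1 (-0.64) and Ppid (-0.36) of the HSP90 list, Hspa12a (-1.25), Hspa13 (-1.08) and Hspa4l (-0.82) of the HSP70 list, Clpx (-1.30) and Hspa9 (-0.44) of the mitochondrial list, and Bag2 (-1.10). Further lower genes were Cct3 (-0.36) and Tcp1 (-0.30) of the chaperonin and Dnajb14 (-0.54), Dnajb2 (-0.44) and Dnajc5 (-0.38) of the J-domain list. Higher were Hspb11 (1.20), Hspb8 (0.56), Hsbp1 (0.46) and Dnajc2 (0.36). In VSG against Sham-Ad lib none of the 63 was called in edgeR's test, beside 0.751% of all genes, so the count was near that share. Log2 fold changes lay between -1.005 (Hspa12a, adjusted p = 0.0706) and 0.56 (Hspb11, adjusted p = 0.190), which were named for being the extremes.

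**Figure D3:**
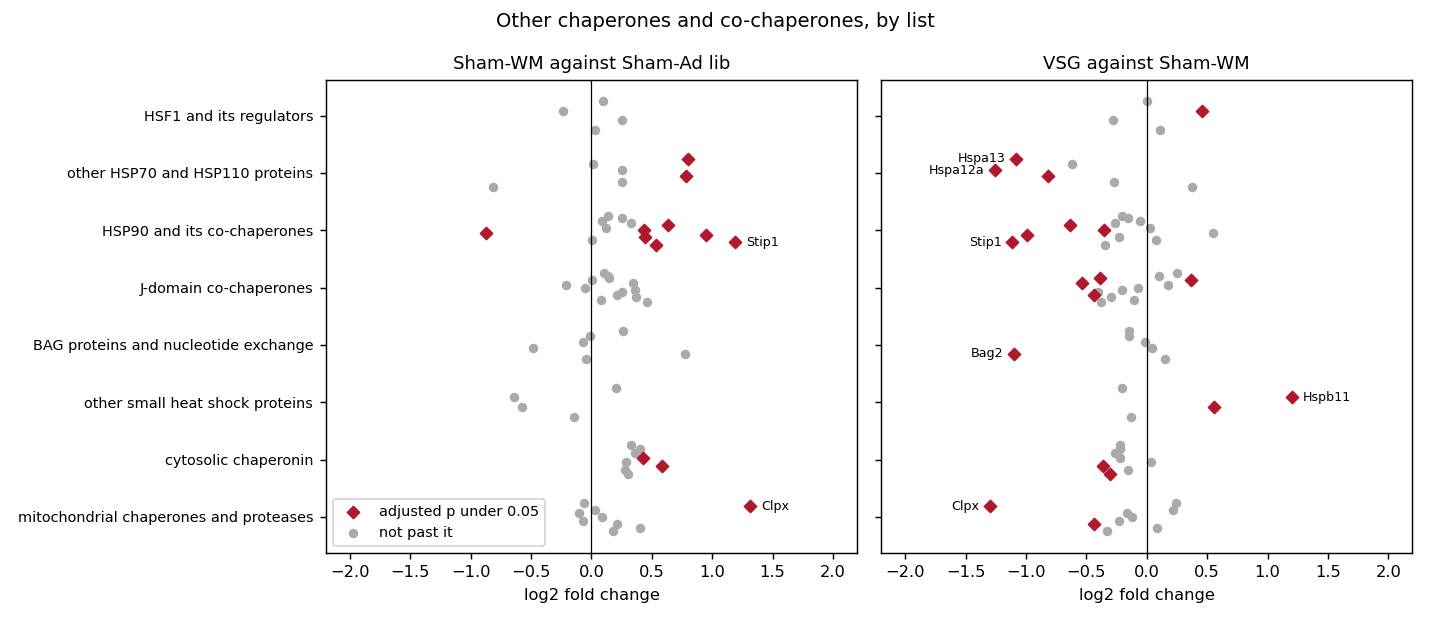
Each point is the log2 fold change of 1 chaperone or co-chaperone outside the set, in rows by list, for Sham-WM against Sham-Ad lib and for VSG against Sham-WM. Red diamonds mark an adjusted p under 0.05, and genes beyond a log2 fold change of 1 in size are named. Among them Stip1 (1.19) and Clpx (1.31) lie right of 0 on the left panel, and both lie left of 0 on the right panel (-1.11 and -1.30).

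Splicing factors and RNA-binding proteins were read as company for Cirbp and Rbm3, since CLK kinases and SR proteins are known to respond to temperature. Of 15 such genes, 5 rose in Sham-WM against Sham-Ad lib, beside 3.53% of all genes called higher, led by Srsf2 (0.80), Srsf3 (0.67), Srsf6 (0.58) and Tra2a (0.54). Against Sham-WM, VSG had 4 lower, led by Srsf2 (-0.68), Srsf1 (-0.57) and Srsf3 (-0.39), and 1 higher, Srsf5 (0.61), and these 5 of 15 stand beside 26.9% of all genes called. Of 10 RNA-binding proteins with stress-granule or RGG-repeat roles none was called in Sham-WM against Sham-Ad lib (Hnrnpa2b1 0.30 and Ewsr1 0.20), beside 6.99% of all genes. In VSG against Sham-WM 1 of the 10 was called, beside 26.9% of all genes. It was Rbmx, which was lower (-0.83, adjusted p = 0.00511, edgeR).

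Across libraries, Cirbp and several heat shock genes stood at opposite ends of a group. The library with the most Cirbp in its group had the lowest value of 6 of the 8 heat shock genes in Sham-Ad lib (10F), of all 8 in Sham-WM (9F) and of 3 in VSG (11F; Hspa1b, Hsph1 and Bag3). In VSG the same library had the highest Hspa8 of its group (1703 CPM). Each of these counts comes from a single mouse, whose genes are not independent of each other. The share of all genes that were lowest in the same libraries was not computed, so the counts are a description only. Over the 12 libraries, the log2 CPM of Cirbp and Hsph1 had a Pearson r of -0.826 (permutation p = 0.00078, adjusted p = 0.00156) and a Spearman rho of -0.734 (permutation p = 0.00841, adjusted p = 0.0168), with p-values adjusted over the 2 relations computed. The shuffles ignored the groups, and the pair was chosen with earlier results of these data known. These p-values are therefore a description and do not support a relation. Without the 2 libraries farthest from the median of Cirbp, 11F and 16F, r was -0.746. After each group's mean was removed, r was -0.852 (exact permutation within groups, p = 0.00362, adjusted p = 0.00723). That too is a description, because the pair was chosen with these data known and the groups hold 4 libraries each. Library 11F also had the lowest total and a TMM factor of 0.879.

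Cirbp and Rbm3 ran together less closely, with r = 0.641 (permutation p = 0.0250, adjusted p = 0.0250) and rho = 0.580 (permutation p = 0.0521, adjusted p = 0.0521) over the 12 libraries. Without 11F and 16F r was 0.578, and without 11F alone it was 0.407. With group means removed it was 0.766 (exact permutation within groups, p = 0.00810, adjusted p = 0.00810). Both relations were chosen with earlier results of these data known, and the shuffles over all 12 libraries ignored the groups. All their p-values, also those within groups, are therefore a description only.

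**Figure D4:**
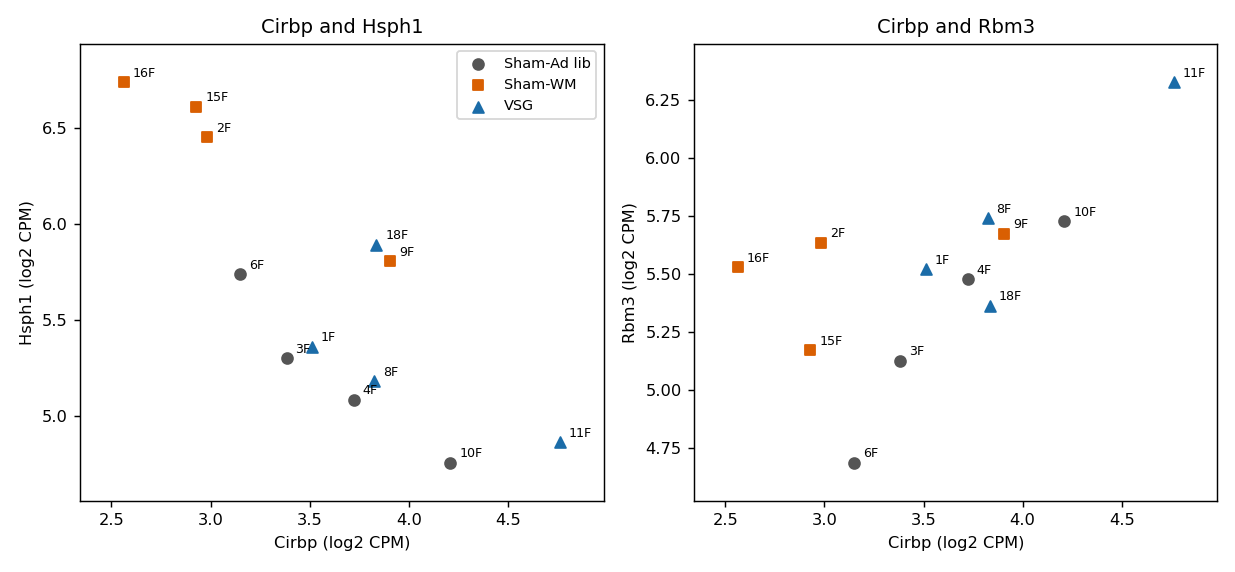
The left panel plots log2 CPM of Hsph1 and the right panel that of Rbm3 against log2 CPM of Cirbp, 1 point per library, with symbols for the groups and animal numbers beside them. On the left, 3 Sham-WM libraries sit at the top left, 10F and 11F at the bottom right, and 9F lies among the other groups (r = -0.826), while on the right 11F is highest in both genes (r = 0.641).

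The genes most like Cirbp over the 12 libraries, by Pearson r of log2 CPM, were Ing4 (0.937), Cir1 (0.927), 1700018L02Rik (0.922), 2210408F21Rik (0.912) and 4930516B21Rik (0.907). Those most like Hsph1 were Chordc1 (0.971), 2810425M01Rik (0.967), Sgpl1 (0.963), Dhx29 (0.954) and Gorasp2 (0.953). Of these 10 genes only Chordc1, an HSP90 co-chaperone, was on any of the chaperone lists. Chordc1 had 28.1 to 35.3 CPM in Sham-Ad lib, 36.4 to 55.0 CPM in Sham-WM and 25.6 to 35.4 CPM in VSG livers, and its lowest Sham-WM value was in 9F. The likeness is a description over libraries that share treatment, depth and composition.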

How the data were processed

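Liver RNA of 12 mice, 4 per group, had been made into directional poly(A) libraries and sequenced as paired reads. Per the study's methods and the submitters' processing notes, the authors aligned reads to mm10 with TopHat2 2.1.1 and counted those on genes with featureCounts. The deposited values are whole-number counts per Ensembl gene, with no normalisation or batch correction. Neither the annotation release nor the strand setting of the counting is given in the sources used here. All 12 columns were used. Symbols and positions came from GENCODE M21, which matched 45229 of 46078 genes. Promoter windows came from RefSeq (GRCm38.p6).

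Genes were kept by edgeR's filterByExpr (minimum count 10, minimum total 15). Group means of all 12 libraries were fitted with TMM factors and compared by edgeR's quasi-likelihood test in 3 contrasts, with Benjamini-Hochberg adjustment over 13054 genes and a threshold of 0.05. Log2 CPM used a prior count of 2. Single values used an exact permutation test, and the 2 correlations permutation tests with 100000 resamples. With group means removed, the correlations used all 13824 rearrangements within groups. R 4.3.3, edgeR 4.0.16, limma 3.58.1, DESeq2 1.42.0, Python 3.11.15 and matplotlib 3.10.9 were used, and the tests were checked on simulated data. RUVr and RUVs factors (2 each) were written out from their definitions, since the authors used RUVSeq with 2 factors against batch-related variation. They were fitted as alternatives only, and the main fit has no batch term. Alternatives were DESeq2, other scaling factors, no filter or a stricter one, only the 2 groups compared, grouping by the other label field, RUV factors, each library left out, and Hspa1a and Hspa1b summed. The members, lists and relations were chosen with earlier results of these data known. All 10 members are given in each comparison. From each list up to 4 called genes with the largest change are named, or the 2 most abundant where none was called. Totals lay between 15122520 and 19384076 counts, and 1 count was worth 0.0510 to 0.0753 CPM. No molecular identifiers are named in the sources used here, and each library came from 1 mouse. Spearman's rho between libraries of a group was 0.963 to 0.992, and chi-square per degree of freedom over the counts of the 18 pairs was at least 16.9, so no pair differed by as little as sampling noise.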

Additional observations from a re-analysis of the deposited data

How the results depend on the processing

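Among the members, no call differed under DESeq2 size factors or upper quartile factors, and the 10 genes gave 0 calls in VSG against Sham-Ad lib under every alternative tried. The label field that pairs titles with other libraries gave 0 genes called in each comparison (465, 715 and 158 at an unadjusted p under 0.05) and 0 members for Sham-WM against either other group. Under it the log2 fold changes turned sign in VSG against Sham-Ad lib for Cirbp (-0.42), Rbm3 (-0.33), Hspa1b (-0.38), Hsph1 (-0.20), Hsp90aa1 (-0.22), Dnajb1 (-0.15) and Hspa8 (-0.10), in Sham-WM against Sham-Ad lib for Rbm3 (-0.30), Hspa1a (-2.17), Hspa1b (-1.61), Hsph1 (-0.54), Hsp90aa1 (-0.72), Dnajb1 (-0.66), Hspa8 (-0.51), Bag3 (-0.40) and Hspb1 (-0.33), and in VSG against Sham-WM for Cirbp (-0.22), Rbm3 (-0.026), Hspa1a (2.22), Hspa1b (1.23), Hsph1 (0.34), Hsp90aa1 (0.51), Dnajb1 (0.50), Bag3 (0.29) and Hspb1 (0.37). The alternative groups mix the libraries of the main ones. With 2 RUVs factors, 1 member was called in VSG against Sham-WM (Hsp90aa1), and the sign turned for Rbm3 (-0.35), Hspa1a (0.63) and Hspa1b (0.0054) there and for Bag3 (0.13) in VSG against Sham-Ad lib. Over all genes, VSG against Sham-Ad lib gave 1202 calls with DESeq2, 628 with no filter, 0 with at least 10 counts in every library (2755 at an unadjusted p under 0.05), 0 with only the 2 groups compared (2523), 3016 with RUVr and 8 with RUVs factors. Sham-WM against Sham-Ad lib gave 1445 with DESeq2, 1399 with only the 2 groups, 2193 with RUVr and 1724 with RUVs factors, and VSG against Sham-WM 5491 with RUVr and 524 with RUVs factors. Leaving out 1 library at a time gave 0 to 1089 genes called in VSG against Sham-Ad lib, 424 to 1311 genes and 2 to 7 members in Sham-WM against Sham-Ad lib, and, for VSG against Sham-WM, 2196 to 3868 genes and 3 to 6 members, both highest member counts being without 9F. In VSG against Sham-Ad lib these fits gave log2 fold changes from -0.12 to 0.31 for Hsph1 (below 0 without 10F or 18F), -0.25 to 1.21 for Hspa1a (below 0 without 18F) and -0.36 to 0.039 for Bag3 (above 0 without 11F), and in VSG against Sham-WM -0.10 to 0.23 for Hspa8 (below 0 without 9F). The cause of these changes was not tested. The r of Cirbp with Hsph1 under other scalings and without single libraries, chosen after seeing the data, ran from -0.856 to -0.764 without single libraries. The filter of 10 counts in every library dropped Hspa1a, so it has no value there. No paired analysis was possible because the groups share no animal numbers.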
